A study of Mus musculus with 4 samples.

Results

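Keratins are the proteins of the intermediate filaments of epithelial cells. This account covers the mouse keratin genes, taken as every gene whose symbol is Krt followed by digits only and which had a probe set annotated to 1 gene. That gave 44 of the 18193 genes on the array, 23 of type I and 21 of type II, measured by 55 probe sets. Where a gene had several probe sets, the one with the highest mean over the arrays stood for it. The rule leaves out keratins whose symbol ends in a letter, such as Krt6a, which are given where a partner is described. Krt9, Krt39, Krt40, Krt74, Krt87 and Krt90 were not analysed here.

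RNA came from tumour epithelial cells of chemically induced squamous cell carcinomas of mouse skin, all labelled malignant. Sox2-GFP+ cells carry the signal of a fluorescent reporter for the transcription factor Sox2 (n = 2 arrays), and Sox2-GFP- cells lack it (n = 2 arrays). Both were living cells (Hoechst-excluding) sorted for Epcam, a surface protein of epithelia, after removal of cells with CD45 (leukocytes), CD31 (endothelium) or CD140a (fibroblasts). Each sample was hybridised to its own whole-genome Affymetrix array. The series text names 2 carcinomas from 2 mice as the source. The strain, age, sex and carcinogen of the mice and the design of the reporter were not stated in the labels. The question the design poses is which genes differ between the Sox2-GFP+ and the Sox2-GFP- epithelial cells of these tumours.

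Keratin filaments are obligate heteropolymers: each contains an acidic type I and a basic type II chain, and the chains come in preferred partnerships. Krt5 with Krt14 builds the filaments of the basal layer of the epidermis, and Krt1 with Krt10 replaces them as cells leave that layer to differentiate. Krt8 with Krt18 belongs to simple, single-layered epithelia, Krt16 and Krt17 with the Krt6 chains are induced by wounding and hyperproliferation, and other keratins are restricted to the hair follicle. The genes lie in a type I cluster on chromosome 11 and a type II cluster on chromosome 15. By the RefSeq gene table, 22 of the 44 genes measured were on each chromosome, because Krt18, a type I gene, sits beside Krt8 in the type II cluster.

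The values are log2 probe set intensities, so that 1 unit is a 2-fold ratio, and differences are Sox2-GFP+ minus Sox2-GFP-. The array medians were 5.49 and 5.52 in Sox2-GFP+ cells and 5.61 and 5.56 in Sox2-GFP- cells. The lower quartiles were 4.19 to 4.25 and the highest values 13.99 to 14.36. Epcam read 10.75 and 11.79 in Sox2-GFP+ cells and 11.24 and 11.80 in Sox2-GFP- cells, while Sox2 read 3.50 and 3.27 against 3.14 and 3.43, below the lower quartile of every array. Pecam1, which encodes CD31, read 5.57 and 6.41 against 8.44 and 6.27, and Pdgfra, which encodes CD140a, 5.93 and 4.85 against 7.83 and 5.96, so that Sox2-GFP- replicate 1 was highest for both. Ptprc, which encodes CD45, did not follow them, at 4.98 and 4.34 against 4.97 and 4.18. Array values carry no detection calls here, and the number of arrays limits the precision. A lower value in bulk RNA cannot tell fewer cells of a type from less RNA per cell.

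The keratins that lay farthest apart between the groups were a few chains of differentiating and upper follicle keratinocytes, while the basal Krt5 and Krt14 and the stress keratins Krt16 and Krt17 differed by at most 0.32. Of the 44 genes, 10 had both Sox2-GFP+ arrays below both Sox2-GFP- arrays (22.7%, against 14.0% of all genes), 11 had both above (25%, against 35.5% of all genes), and 23 overlapped. This split moved with the processing, to 8 higher and 10 lower with quantile normalization and 15 higher and 8 lower with equal array medians. Without dimmer genes 3 were higher and 8 lower of the 15 keratins left. Scaling to the bacterial spike-in transcripts, which added 0.79 to every gene's difference, gave 33 higher and 3 lower. The 14.0% and 35.5% of all genes are for the deposited values and were not counted again under these settings. A gap of at least 1 log2 unit separated 3 keratins in the lower direction, Krt79, Krt80 and Krt1 (6.82%, against 1.36% of all genes), and 0 in the higher direction (0.665% of all genes). The median difference was 0.05 over the keratins and 0.14 over all genes, and 32 of the 44 differed by less than 0.5 either way.

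No keratin passed limma's test with an adjusted p under 0.05 (lowest adjusted p = 0.157), and neither did any other gene (0% of 18193). At an unadjusted p under 0.05 in limma stood 6 keratins, all lower (Krt1, Krt10, Krt73, Krt75, Krt79 and Krt80), where 5.22% of all genes were lower and 9.75% higher. With the replicate number as a block, limma called 1 keratin, Krt79, among 0.868% of all genes called lower and 0.0715% called higher. Leaving out an array moves the counts, partly because fewer arrays overlap less. The 10 lower keratins became 21 without Sox2-GFP+ replicate 1, and the 11 higher ones became 28 without Sox2-GFP+ replicate 2 and 19 without Sox2-GFP- replicate 2. The 3 keratins a full unit lower became 7 without Sox2-GFP+ replicate 1. With an array left out, the matching counts over all genes were not taken. The plot of all members by array shows the classes side by side.

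**Figure D1:**
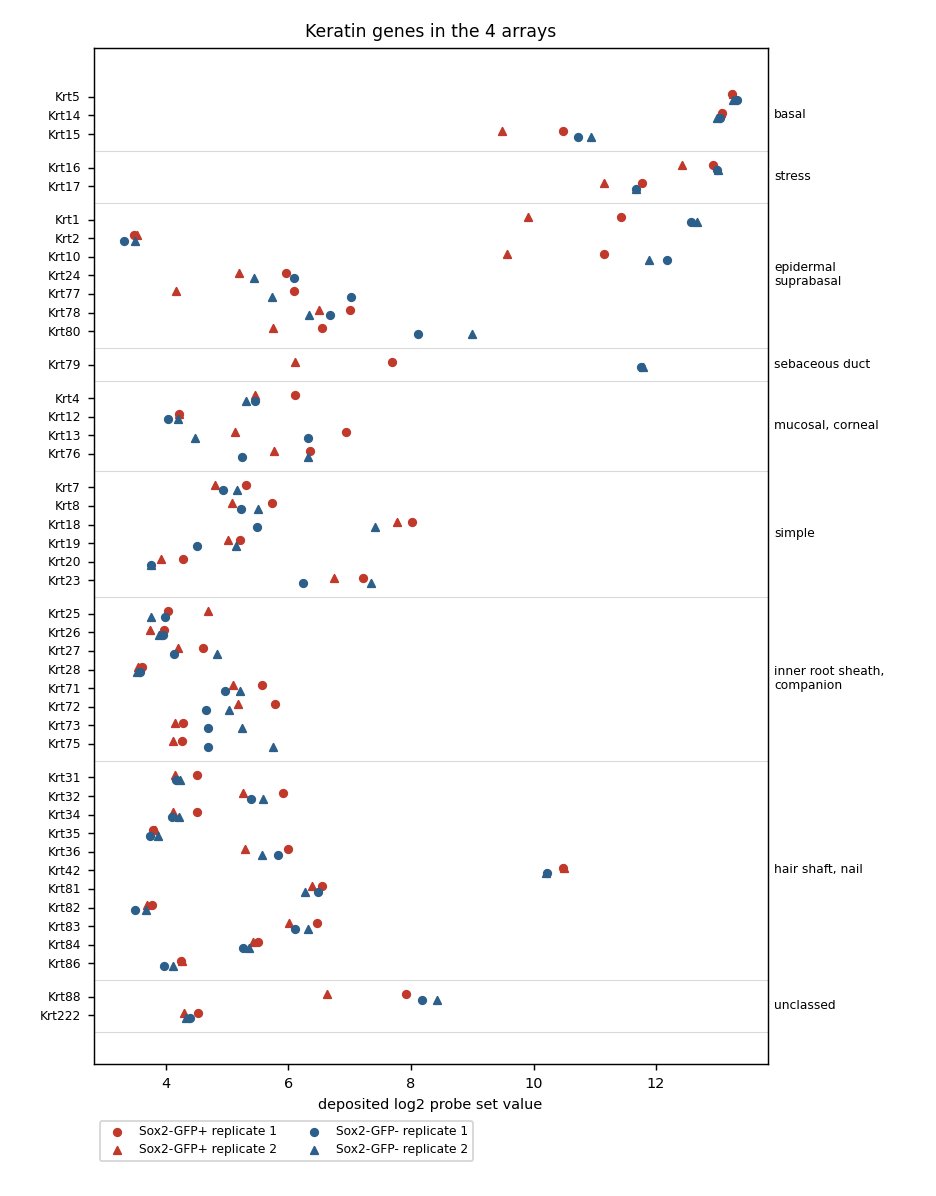
Deposited log2 value (x axis) of each of the 44 keratin genes (rows, grouped by class) in the 2 Sox2-GFP+ arrays (red, upper points of a row) and the 2 Sox2-GFP- arrays (blue, lower points); circles are replicate 1 and triangles replicate 2. Krt79 stands out, with Sox2-GFP+ arrays at 7.69 and 6.11 and Sox2-GFP- arrays at 11.75 and 11.78.

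Krt79 had the widest separation of the family. It is a type II keratin of the upper hair follicle, where it lines the infundibulum and the duct of the sebaceous gland. It read 7.69 and 6.11 in Sox2-GFP+ cells and 11.75 and 11.78 in Sox2-GFP- cells. The groups did not overlap, the Sox2-GFP- arrays differed by 0.03, and the gap between the nearest arrays was 4.05, the second widest in the lower direction among all genes. Its mean was 6.90 ± 1.12 in Sox2-GFP+ cells and 11.76 ± 0.02 in Sox2-GFP- cells (SD, n = 2 each), 29.1-fold lower (log2 difference -4.86 ± 0.54 SE, limma adjusted p = 0.157). With the replicate number as a block limma gave an adjusted p of 0.0270, where 171 of the 18193 genes were called. With a trended prior limma gave 0.0423 (19 genes called), and with scaling to the spike-in transcripts 0.0187 (12717 genes called). The call thus depends on the form of the test and on the scaling, while the difference stayed between -4.07 and -5.65 in every alternative. Taken by replicate number, the difference was -4.05 for replicate 1 and -5.67 for replicate 2.

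Markers of the sebaceous gland, whose duct Krt79 marks, were read beside it and were mixed. Of 14 measured sebocyte markers, 7 had both Sox2-GFP+ arrays below (14.0% of all genes did), 1 above (35.5% of all genes) and 6 overlapped, with a median difference of -0.43, and their mean level was 7.69 and 7.12 in Sox2-GFP+ cells and 8.44 and 8.26 in Sox2-GFP- cells. None passed limma without the block (lowest adjusted p = 0.183). With the block 3 did, all lower, where 0.868% of all genes were called lower: Cidea, a lipid droplet protein (adjusted p = 0.0427), Elovl3, a fatty acid elongase (0.0389), and Far2, a fatty alcohol synthase (0.0344). Far2 read 6.30 and 4.20 against 9.43 and 9.05, and Scd1, a fatty acid desaturase, 10.20 and 9.95 against 11.52 and 11.25. Fasn, the fatty acid synthase, was the marker above, at 9.95 and 10.05 against 9.72 and 9.52. The part of sebaceous cells in the Krt79 difference was not tested.

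Of the 7 epidermal suprabasal keratins, 3 lay lower without overlap (Krt1, Krt10 and Krt80), beside 14.0% of all genes, and 0 higher, beside 35.5%. Differences ran from -2.41 to -1.25 in 4 of the class, and the other 3 differed by less than 0.25. Krt1 and Krt10 are the partner chains of the spinous layer, the first differentiated layer above the basal one. Krt1 read 11.43 and 9.92 in Sox2-GFP+ cells and 12.57 and 12.66 in Sox2-GFP- cells, and Krt10 read 11.15 and 9.57 against 12.17 and 11.88. Both had all Sox2-GFP+ arrays below all Sox2-GFP- arrays, with Sox2-GFP+ replicate 2 the lowest. Krt1 was 3.84-fold lower (-1.94 ± 0.52 SE, n = 2 per group, limma adjusted p = 0.242) and Krt10 3.17-fold lower (-1.66 ± 0.55, limma adjusted p = 0.284). Without Sox2-GFP+ replicate 2 the differences were -1.18 and -0.87. The difference of Krt1 was -0.28 relative to that of Krt10, which was not tested.

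Krt80 is a type II keratin found, in human tissues, near the desmosomes of differentiating cells. It read 6.55 and 5.75 in Sox2-GFP+ cells and 8.11 and 9.00 in Sox2-GFP- cells. The gap between the nearest arrays was 1.56, and the gene was 5.30-fold lower (-2.41 ± 0.42 SE, n = 2 per group, limma adjusted p = 0.184). Krt77, the type II neighbour of Krt1 in the cluster, read 6.09 and 4.16 against 7.02 and 5.73; its groups overlapped, since Sox2-GFP+ replicate 1 lay above Sox2-GFP- replicate 2 (-1.25 ± 0.76, limma adjusted p = 0.495). Taken by replicate number, the Krt77 difference was -0.93 for replicate 1 and -1.57 for replicate 2, and replicate 1 was the higher array in both groups. Without Sox2-GFP+ replicate 2 its difference was -0.29, and without Sox2-GFP+ replicate 1 it was -2.21.

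The other suprabasal keratins did not go with them. Krt78, a late suprabasal type II keratin of the mouse, read 7.00 and 6.50 in Sox2-GFP+ cells and 6.68 and 6.34 in Sox2-GFP- cells (0.24 ± 0.26, limma adjusted p = 0.697). Krt24 differed by -0.19 with overlapping groups, and Krt2, the type II chain of the granular layer, lay below the lower quartile in all 4 arrays (3.32 to 3.53). Over the 7 genes of the class the median difference was -1.25, beside 0.14 over all genes. The class mean, relative to each gene's 4-array mean, was -0.01 and -1.01 in Sox2-GFP+ cells and 0.61 and 0.41 in Sox2-GFP- cells.

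Promoter sequence is shown for the 2 keratins of the differentiating compartments that the sequence table holds and that lay lowest, Krt79 and Krt10. Beside them are the promoter sequences of Krt5, a basal chain with a difference of -0.04, and Krt18, the chain with the largest positive difference. Each is the 250 bases before the annotated gene start, 5′ to 3′ on the gene's strand, from RefSeq on GRCm38.p6, at chr15:101940325-101940574 (minus strand), chr11:99389365-99389614 (minus), chr15:101712906-101713155 (minus) and chr15:102027966-102028215 (plus). Capitals mark the TATA box letters TATAAA, the element that positions the start of transcription.
Krt79: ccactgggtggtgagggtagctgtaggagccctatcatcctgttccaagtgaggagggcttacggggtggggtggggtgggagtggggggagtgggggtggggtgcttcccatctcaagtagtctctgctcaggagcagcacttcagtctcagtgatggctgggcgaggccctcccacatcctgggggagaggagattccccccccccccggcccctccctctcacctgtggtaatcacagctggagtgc
Krt10: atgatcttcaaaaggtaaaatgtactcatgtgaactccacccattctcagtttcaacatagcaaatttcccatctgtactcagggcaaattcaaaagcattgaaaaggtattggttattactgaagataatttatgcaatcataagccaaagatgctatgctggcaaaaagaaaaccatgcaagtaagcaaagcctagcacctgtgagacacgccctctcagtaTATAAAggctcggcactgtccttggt
Krt5: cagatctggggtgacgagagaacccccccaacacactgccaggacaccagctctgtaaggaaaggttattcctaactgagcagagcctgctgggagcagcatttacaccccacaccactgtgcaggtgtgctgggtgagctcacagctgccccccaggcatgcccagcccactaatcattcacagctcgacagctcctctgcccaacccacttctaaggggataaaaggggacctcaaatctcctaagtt
Krt18: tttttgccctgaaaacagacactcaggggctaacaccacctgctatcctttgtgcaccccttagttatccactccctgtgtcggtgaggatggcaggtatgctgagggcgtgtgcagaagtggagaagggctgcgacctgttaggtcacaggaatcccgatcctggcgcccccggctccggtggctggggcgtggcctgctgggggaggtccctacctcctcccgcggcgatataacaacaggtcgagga

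Of these 4 windows, Krt10 alone held TATAAA, beginning at position -26 counted back from the start. The table had 32 windows for 31 of the 44 keratin genes, with none for Krt1 or Krt80. Each of 5 motifs was looked for on both strands. TATAAA was in 15 of the 32 windows and in 12.4% of all 32851 windows of that length, most of the 15 being hair follicle keratins. For Krt72 and Krt84 the only match was on the opposite strand, at -203 and -206. Near matches to these letters were not counted. GGGCGG, the GC box bound by Sp1, was in 2 of 32 (Krt7 and Krt75) and 32.7% of all. CCAAT was in 13 of 32 and 33.9% of all, GCCNNNGGC, which AP-2 factors bind, in 3 of 32 and 13.7%, and TGANTCA, which AP-1 binds, in 2 of 32, both of Krt13, and 6.75%. Krt79 and Krt5 held none of the 5. These are matches of letters in a window and say nothing of binding.

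The basal partners Krt5 and Krt14 read almost the same in both groups. Krt5 read 13.24 and 13.26 in Sox2-GFP+ cells and 13.32 and 13.26 in Sox2-GFP- cells, and Krt14 read 13.07 and 13.05 against 13.04 and 12.99. These values lay near the top of the arrays, whose highest values were 13.99 to 14.36. Krt5 differed by -0.04 ± 0.18 and Krt14 by 0.04 ± 0.18 (SE, n = 2 per group, limma adjusted p = 0.930 and 0.925), and their signs turn with the scaling (Krt5 0.040 with equal medians, Krt14 -0.0030 with quantile normalization). A second Krt14 probe set gave 12.96 and 12.95 against 12.90 and 12.88, and the dimmest 8.19 and 8.14 against 8.54 and 7.96.

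Krt15, a type I keratin of basal cells that is enriched in the hair follicle bulge, departed from this pair. It read 10.47 and 9.48 in Sox2-GFP+ cells and 10.73 and 10.93 in Sox2-GFP- cells, with both Sox2-GFP+ arrays lower and replicate 2 the lowest. Krt15 thus differed by -0.85 ± 0.37 (limma SE and adjusted p = 0.371, 2 arrays a group), by -0.36 without Sox2-GFP+ replicate 2 and -1.35 without Sox2-GFP+ replicate 1, and -0.06 with scaling to the spike-in transcripts.

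The stress keratins, which mark wounded and hyperproliferative epidermis, were far above the median in all arrays. Krt16 read 12.93 and 12.42 in Sox2-GFP+ cells and 12.99 and 13.00 in Sox2-GFP- cells (-0.32 ± 0.24, limma adjusted p = 0.572). Krt17 read 11.77 and 11.16 against 11.67 and 11.67 (-0.21 ± 0.27, limma adjusted p = 0.734). The groups overlapped for Krt17, and for Krt16 the gap was 0.06. The type II partner Krt6a read 13.25 and 13.39 against 13.26 and 13.35, and Krt6b 12.56 and 11.85 against 12.60 and 12.48. In Krt16, Krt17 and Krt6b, but not in Krt6a, Sox2-GFP+ replicate 2 was the lowest array.

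**Figure D2:**
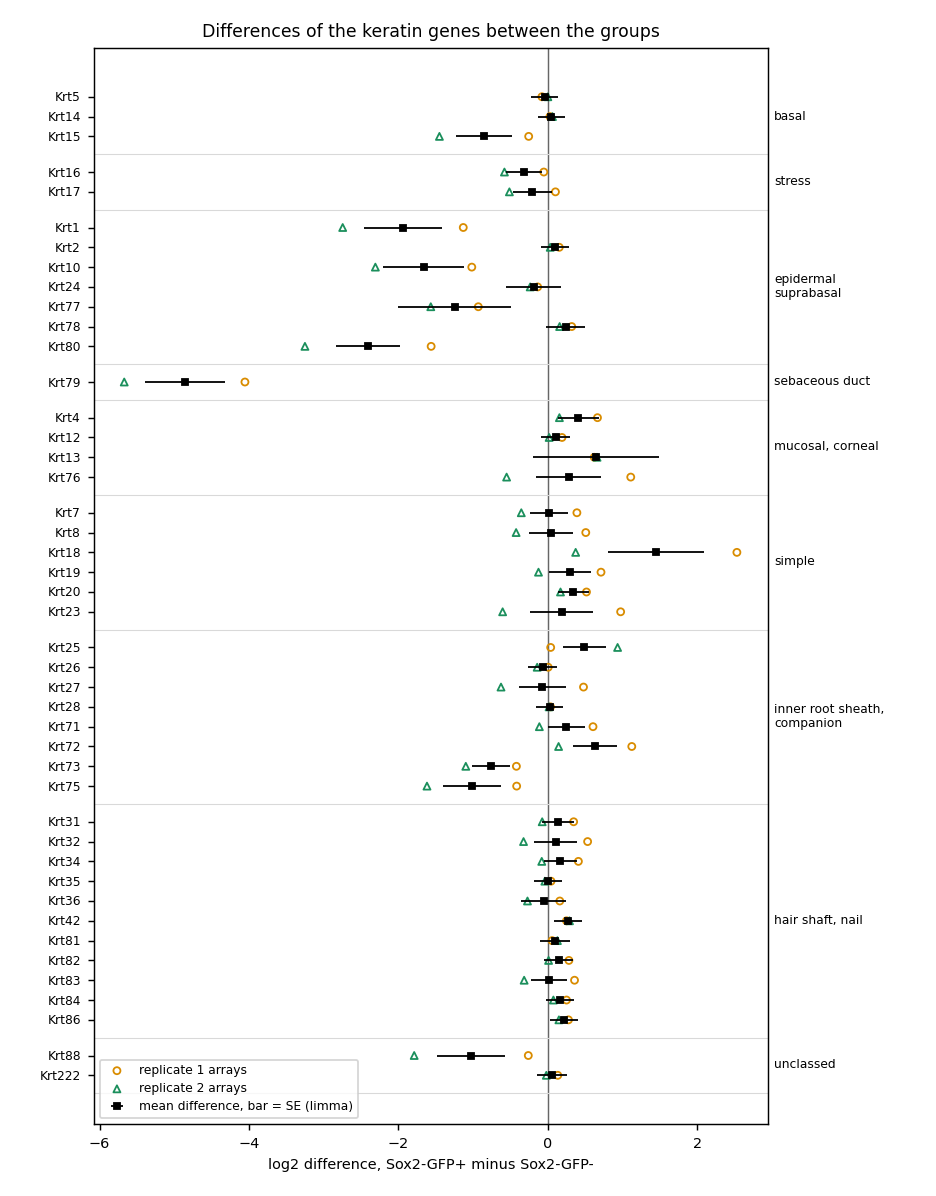
Log2 difference, Sox2-GFP+ minus Sox2-GFP- (x axis), of each keratin gene (rows, grouped by class). Squares with bars are the mean difference and its SE from limma; open circles and triangles are the differences between the replicate 1 and between the replicate 2 arrays. Krt79 is at -4.86, Krt80 at -2.41, Krt1 at -1.94 and Krt10 at -1.66, and Krt18 is the highest at 1.45.

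Of 6 simple epithelial keratins, 2 lay higher without overlap (Krt18 and Krt20), 4 overlapped and 0 lay lower, with a median of 0.24, and 2 in 6 is near the 35.5% of all genes that lay higher. In mouse skin tumours Krt8 and Krt18, normally absent from epidermis, are known to appear with malignant progression. Krt18 read 8.01 and 7.78 in Sox2-GFP+ cells and 5.48 and 7.41 in Sox2-GFP- cells. Both Sox2-GFP+ arrays were above both Sox2-GFP- arrays, but Sox2-GFP- replicate 1 lay far below the others: the difference of 1.45 ± 0.64 (SE, n = 2 per group, limma adjusted p = 0.381) was 0.49 without that array. Krt8, its type II partner, read 5.73 and 5.08 against 5.22 and 5.50, with overlapping groups (0.04 ± 0.29, limma adjusted p = 0.956). The 3 Krt8 probe sets gave differences of 0.04, 0.64 and -0.07, so Krt8 is uncertain here. The difference between the partners' differences, -1.41 for Krt8 relative to Krt18, was not tested.

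Krt7 and Krt19, partner chains of ducts and other simple epithelia, overlapped between the groups. Krt7 read 5.32 and 4.80 in Sox2-GFP+ cells and 4.93 and 5.16 in Sox2-GFP- cells, and Krt19, which also marks follicle stem cells, 5.21 and 5.02 against 4.50 and 5.15 (0.02 ± 0.25 and 0.29 ± 0.28, limma adjusted p = 0.983 and 0.653). Krt23 read 7.21 and 6.74 against 6.24 and 7.34 (0.18 ± 0.42, limma adjusted p = 0.856). Krt20, the type I keratin of intestinal epithelium and of Merkel cells, read 4.27 and 3.93 against 3.76 and 3.76, near the lower quartile of the arrays.

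Merkel cells, the touch receptor cells of skin, make Krt8, Krt18 and Krt20 and also Sox2, so their other markers were read beside these keratins. Of 11 Merkel cell markers, 4 had both Sox2-GFP+ arrays above, 0 below and 7 overlapped, with a median difference of 0.21, and a count of 4 in 11 is near the 35.5% of all genes that lay above. Their mean level was 5.28 and 5.00 in Sox2-GFP+ cells and 4.86 and 4.89 in Sox2-GFP- cells, and none passed limma with or without the block (lowest adjusted p = 0.252 without it). The 4 above were Sct, Isl1, Chgb and Pou4f3. Sct, which had that lowest adjusted p, read 7.31 and 7.55 against 6.40 and 6.83, and Isl1 4.79 and 4.34 against 4.03 and 4.23. Atoh1, the factor that defines the lineage, overlapped, at 4.47 and 4.34 against 4.20 and 4.45. The part of Merkel cells in the Krt18 and Krt20 values was not tested.

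Of 4 keratins of mucosal and corneal epithelia, 2 lay higher without overlap (Krt4 and Krt12), beside 35.5% of all genes, and 2 overlapped. The gap between the nearest arrays was 0.0095 for Krt4 and 0.015 for Krt12. The class median was 0.34, beside 0.14 over all genes. Krt13, the type I chain of oral and oesophageal suprabasal cells and a marker of progression in mouse skin papillomas, read 6.94 and 5.13 in Sox2-GFP+ cells and 6.32 and 4.47 in Sox2-GFP- cells. It split by replicate number more than by group: the replicate 1 arrays lay above the replicate 2 arrays in both groups, and the difference was 0.62 for replicate 1 and 0.66 for replicate 2 (0.64 ± 0.84, limma adjusted p = 0.743). Its partner Krt4 read 6.11 and 5.46 against 5.45 and 5.31, but a second probe set for Krt4 gave a difference of -0.25 where this one gave 0.41, or 0.08 without Sox2-GFP+ replicate 1. Krt76, of palate and other oral epithelium, read 6.35 and 5.77 against 5.24 and 6.32. Krt12, of cornea, lay between 4.03 and 4.22 in all 4 arrays, below the array's lower quartile in 3 of them.

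Hair keratins had small differences in the shaft and nail class and some larger ones, in both directions, in the sheath class. Of 11 keratins of the hair shaft and nail (Krt31, Krt32, Krt34, Krt35, Krt36, Krt42, Krt81, Krt82, Krt83, Krt84 and Krt86), differences ran from -0.06 to 0.27, with 4 genes above and 0 below and a median of 0.13. Both are near the values over all genes, 35.5% above and a median of 0.14. Krt42, a nail keratin close in sequence to Krt17, had the largest difference of these and read 10.47 and 10.50 in Sox2-GFP+ cells and 10.23 and 10.21 in Sox2-GFP- cells. Its probe set is of a kind (suffix x) that can bind other transcripts, and the other Krt42 probe set read 6.47 and 8.21 against 5.83 and 6.37. Adjusted p in limma ran from 0.531 upward in this class.

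Of 8 keratins of the inner root sheath and companion layer, which wrap the growing hair, 2 lay lower, 2 higher and 4 overlapped (Krt26, Krt27, Krt28 and Krt71). Krt75, of the companion layer, read 4.27 and 4.13 in Sox2-GFP+ cells and 4.69 and 5.74 in Sox2-GFP- cells (-1.02 ± 0.39, limma adjusted p = 0.325). Krt73, of the inner root sheath, read 4.27 and 4.15 against 4.69 and 5.25 (-0.76 ± 0.26, limma adjusted p = 0.294), a difference that became 0.03 with scaling to the spike-in transcripts. Krt72, another type II chain of the sheath, was on the opposite side, with 5.78 and 5.18 in Sox2-GFP+ cells and 4.66 and 5.04 in Sox2-GFP- cells (0.63 ± 0.29, limma adjusted p = 0.392), and Krt25, below the array median throughout, differed by 0.48. Krt73 lay below the array median in all 4 arrays and Krt75 in 3 of them. Sox2-GFP- replicate 2 was the highest array for Krt73 and Krt75, and without it the differences were -0.48 and -0.49. Without Sox2-GFP+ replicate 1 that of Krt72 was 0.33, and without Sox2-GFP+ replicate 2 that of Krt25 was 0.15. Other markers of hair shaft and inner root sheath lay on both sides, with 5 of 14 above (35.5% of all genes), 3 below (14.0% of all genes) and 6 overlapping, and a median of 0.08. Among them Padi3, an enzyme that modifies hair proteins, read 8.47 and 8.66 against 6.70 and 6.28 (limma adjusted p = 0.157, 0.0433 with the block). Lrrc15, a membrane protein, passed with the block in the lower direction, at 8.20 and 5.35 against 10.69 and 8.24 (limma adjusted p = 0.388, 0.0282 with the block). Dsc1, a desmosomal cadherin also made in upper epidermis, read 8.03 and 5.78 against 9.44 and 9.71, and Ptprz1, a receptor phosphatase, 8.90 and 9.97 against 7.75 and 6.81.

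Krt88 and Krt222 were given no class. Krt88, in the type II cluster, read 7.92 and 6.64 in Sox2-GFP+ cells and 8.19 and 8.43 in Sox2-GFP- cells (-1.03 ± 0.45, limma adjusted p = 0.380), a difference of -0.38 without Sox2-GFP+ replicate 2. Krt222, a keratin-like gene of the type I cluster, lay between 4.30 and 4.53 in all arrays.

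Neighbouring genes had unlike differences in several places. Reading along chromosome 15, Krt1 and Krt77 are neighbours and differed by -1.94 and -1.25. Then follow Krt76 and Krt4 at 0.28 and 0.41, Krt79 at -4.86, Krt78 at 0.24, Krt8 at 0.04 and Krt18 at 1.45. Thus the most negative and the most positive difference of the family have only Krt78 and Krt8 between them among the measured genes. Krt80 and Krt88, also lower, flank Krt7 at the other end of the cluster. On chromosome 11 Krt10 at -1.66 stands between Krt28 at 0.02 and Krt12 at 0.10, and Krt15 at -0.85 between Krt13 at 0.64 and Krt19 at 0.29. By type, 3 of 23 type I and 7 of 21 type II genes were lower without overlap (14.0% of all genes). Higher without overlap were 6 and 5 (35.5% of all genes). A difference between the types was not tested.

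**Figure D3:**
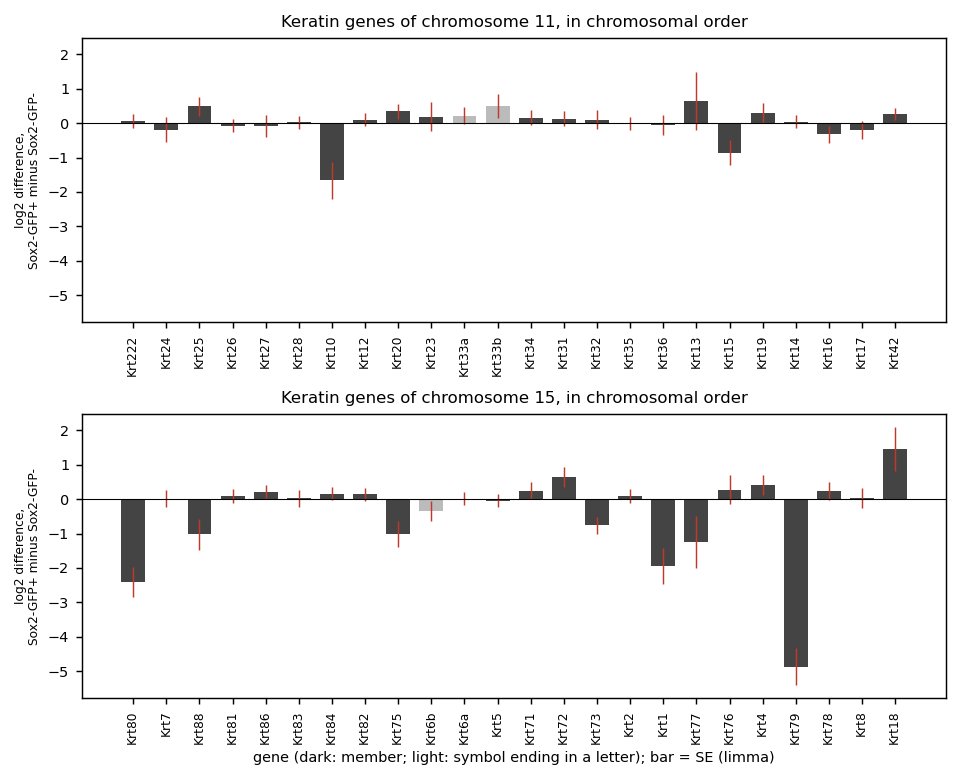
Log2 difference, Sox2-GFP+ minus Sox2-GFP- (y axis), of the measured keratin genes in their order along chromosome 11 (top) and chromosome 15 (bottom); bars are the mean difference and red lines its SE from limma, and light bars are keratins whose symbol ends in a letter. Krt79 at -4.86 stands between Krt4 at 0.41 and Krt78 at 0.24.

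The 2 Sox2-GFP+ arrays were not alike in their keratins. Replicate 2 lay below replicate 1 in 37 of the 44 genes (84.1%, against 58.7% of all genes), and it was the lowest of the 4 arrays in 20. Replicate 1 was the highest of the 4 arrays in 24. As a result 12 keratins were lower in the Sox2-GFP+ array by replicate 1 and 28 by replicate 2, and those 12 were among the 28. The keratins' median difference was 0.17 by replicate 1 and -0.12 by replicate 2, beside 0.19 and 0.06 over all genes. Between the Sox2-GFP- arrays, replicate 2 lay below replicate 1 in 15 of the 44 keratins, and in 45.8% of all genes. The counts of lowest and highest arrays, and of lower keratins by replicate number, were not taken over all genes.

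Markers of other cell types also differed between the arrays. Of 14 fibroblast markers, 13 had both Sox2-GFP+ arrays below both Sox2-GFP- arrays (14.0% of all genes) and 1 overlapped, and their mean level was 9.14 and 6.86 in Sox2-GFP+ cells and 11.25 and 9.74 in Sox2-GFP- cells. With the block 7 of them passed limma as lower (0.868% of all genes), against 0 without it; so did 1 endothelial marker (Emcn) and 2 melanocyte markers (Tyrp1 and Dct). For the 12 endothelial markers, 4 below and 8 overlapping, the mean level was 5.79 and 5.07 against 7.38 and 5.79. For the 16 leukocyte markers, 4 below, 1 above and 11 overlapping, it was 5.72 and 5.25 against 6.43 and 5.58. For the 9 melanocyte markers, 5 below and 4 overlapping, it was 5.23 and 4.63 against 6.27 and 5.74. Sox2-GFP- replicate 1, where Krt18 was lowest, was highest for all 4 lists, and Sox2-GFP+ replicate 2, where Krt1, Krt10 and Krt79 were lowest, was lowest for all 4. Their part in the keratin differences was not tested.

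**Figure D4:**
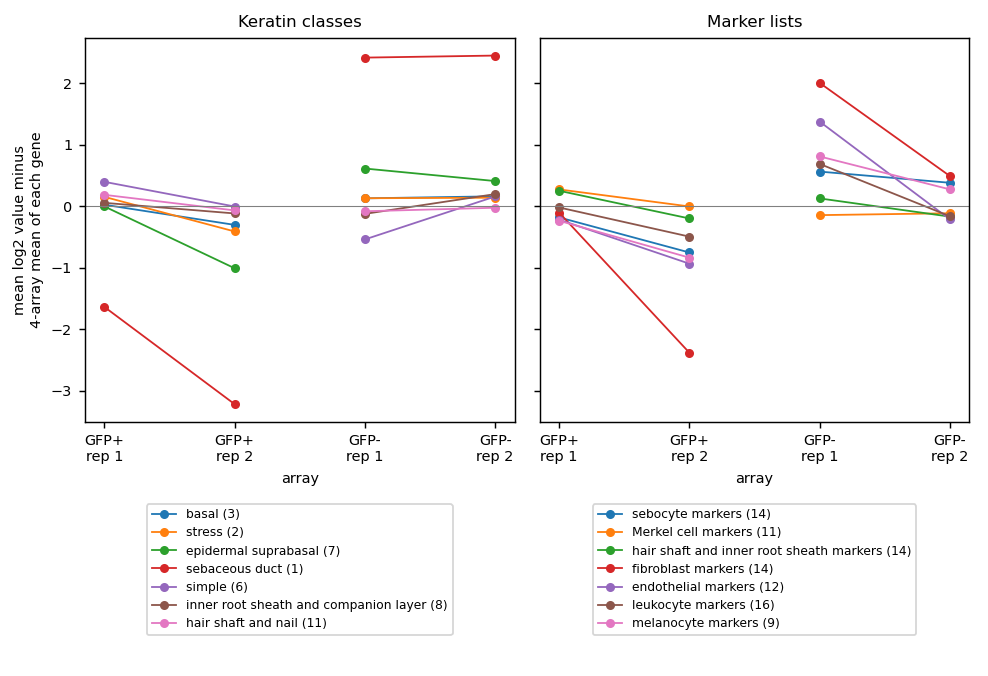
Mean log2 value of 7 keratin classes (left) and 7 marker lists (right), as a deviation from the gene's own 4-array average (y axis), in the 2 Sox2-GFP+ and the 2 Sox2-GFP- arrays (x axis); lines join the arrays of a group, and numbers of genes are in brackets. The sebaceous duct keratin Krt79 runs from -3.22 to 2.45 and the fibroblast list from -2.39 to 2.00, while the basal class stays between -0.31 and 0.16.

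Of 19 measured genes for proteins that anchor or bundle keratin filaments, 7 lay lower without overlap (14.0% of all genes), 5 higher (35.5% of all genes) and 7 overlapped, with a median of -0.08. Flg, whose product profilaggrin bundles keratin in the cornified layer, read 3.17 and 3.02 in Sox2-GFP+ cells and 5.23 and 5.91 in Sox2-GFP- cells, the Sox2-GFP+ arrays being below the lower quartile (limma adjusted p = 0.157, 0.0390 with the block, the only one of the list to pass). Dsg1a, a desmosomal cadherin of differentiated epidermis, read 5.92 and 3.95 against 7.89 and 8.52, and Ppl, periplakin, which ties keratin to desmosomes, 7.58 and 8.18 against 8.82 and 9.37. Tchp, trichoplein, a keratin-binding protein, was on the other side at 6.17 and 6.32 against 5.56 and 5.70.

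Of 21 measured transcription factors known to regulate keratin genes, 9 lay lower without overlap (14.0% of all genes), 3 higher (35.5% of all genes) and 9 overlapped, with a median of -0.23. The 3 higher were Trp63, the p63 factor of basal keratinocytes, Msx2 and Nfe2l2, with differences of 0.24, 0.41 and 0.37. Tfap2b, an AP-2 factor, read 4.66 and 4.14 in Sox2-GFP+ cells and 6.65 and 6.79 in Sox2-GFP- cells (limma adjusted p = 0.157, 0.0389 with the block, the only one to pass). Pou2f3, a factor of suprabasal keratinocytes, read 7.29 and 5.66 against 8.42 and 9.09. Cebpa, which acts in early differentiation, read 8.68 and 8.95 against 9.53 and 10.26, and Grhl1, a grainyhead factor, 8.80 and 8.10 against 9.32 and 9.70. Of the 4 keratins whose symbol ends in a letter (Krt6a, Krt6b, Krt33a and Krt33b), 1 lay higher without overlap and 3 overlapped (limma adjusted p = 0.531 to 0.977).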

How the data were processed

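Total RNA of 4 sorted samples, 2 per group, was amplified, biotin-labelled and hybridised to 1 Affymetrix mouse array each, per the labels' protocols. The authors deposited 1 table of log2 values for 45101 probe sets, a scale read from the values (2.73 to 14.36). The submitters' processing notes name R 2.14.0; which background correction, normalization and summary were run is not given in the sources used here. Groups and replicate numbers came from the sample titles.

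The 64 control probe sets, 932 with several symbols and 9160 with none were left out. The 18193 genes of the other 34945 were each represented by the probe set with the highest mean, and tested together with limma 3.58.1 in R 4.3.3 (lmFit and eBayes, group as the only term, 2 residual degrees of freedom, prior 2.92, Benjamini-Hochberg over all genes, threshold 0.05), checked first on simulated data. No filter on dim genes was used. Dim values only bound a level.

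The series text names 2 tumours, but no label says that a replicate number marks a tumour, so the fit has no block. The deviations of same-numbered arrays had a correlation of 0.16 across genes, which are not independent samples. The block is given where it changes a call. Keratin classes follow textbook assignment; the 10 other lists hold 142 entries, 134 measured. Members, lists and named genes were chosen with earlier results of these data known. Values in all arrays are given for fixed class representatives, for keratins separated by 1 log2 unit or called, for the 6 largest differences, and for up to 4 members of each list; a few others were named after their values were seen. Alternatives were the block, quantile normalization, equal medians, scaling to 24 spike-in probe sets, leaving out dimmer genes, the mean of probe sets, a trended or robust prior, block with quantile normalization, and leaving out each array; the block without dimmer genes was added after seeing the data. Sequences are from RefSeq, GRCm38.p6.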

Additional observations from a re-analysis of the deposited data

How the results depend on the processing

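With 2 arrays per group the test has little power, and no detection calls set a floor. Scaling to the spike-in transcripts, which averaged 9.63 and 9.55 in Sox2-GFP+ arrays and 10.26 and 10.51 in Sox2-GFP- arrays, added 0.79 to every difference and brought the all-gene median to 0.93. It called 31 keratins (12717 of all genes), gave 33 keratins higher and 3 lower without overlap and 1 lower by a full unit, and a keratin median of 0.84; relative to all genes that median was -0.09, as deposited. Under it the differences of Krt5 (0.75), Krt16 (0.47) and Krt17 (0.58) turned positive, while Krt79 (-4.07) and Krt80 (-1.62) were called lower. Limma called 1 keratin, Krt79, with the replicate block, with the replicate block and quantile normalization, and with a trended prior. Over all 18193 genes these fits called 171, 183 and 19. The replicate block without dimmer genes called 0 keratins and 0 of its 9097 genes (limma adjusted p = 0.0749 for Krt79). Leaving out the dimmer genes kept 15 keratins, of which 3 were higher without overlap, with a median of -0.21. Krt14 turned to -0.0030 with quantile normalization, with or without the replicate block, and Krt5 to 0.040 with equal medians; the cause was not tested.

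Leaving out each array in turn gave 12 to 28 keratins higher without overlap, 10 to 21 lower, and 3 to 7 lower by a full unit, where fewer arrays by construction overlap less. The keratin median ran from -0.05 to 0.18. Small differences changed sign: Krt7 ran from -0.24 to 0.27, Krt8 from -0.28 to 0.36, Krt13 from -0.29 to 1.56, Krt17 from -0.51 to 0.10, Krt19 from -0.031 to 0.61, Krt23 from -0.37 to 0.74, Krt76 from -0.26 to 0.82 and Krt78 from -0.013 to 0.49. Krt1, Krt10, Krt15, Krt79 and Krt80 stayed below 0, and Krt18 above 0, in every alternative run. Krt77 stayed below 0 and Krt4 above 0 in every alternative that held them, the fits without dimmer genes leaving both out. Other keratins that kept their sign are not listed.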
